A study of Mus musculus with 6 samples.

Results

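The genes described here are 10 genes of MHC class I antigen presentation: H2-K1, H2-D1, H2-Q7, B2m, Tap1, Tap2, Tapbp, Psmb8, Psmb9 and Nlrc5. They were taken from a table of 54532 genes by gene name, a rule that uses no measured value. The list itself was chosen with earlier results of these data known. All 10 were found and passed the filter on low values. MHC class I molecules show short peptides from inside the cell to CD8 T cells. The proteasome cuts cytosolic proteins into peptides, the TAP transporter moves the peptides into the endoplasmic reticulum, and tapasin holds the transporter next to an empty heavy chain paired with β2-microglobulin until a peptide has bound. Loss of this pathway is a known route by which tumour cells escape T cells, and interferon gamma is its classical inducer.

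RNA was measured in bone marrow (BM) of C57BL/6 mice at day 100 after transplantation. By the labels, 3 libraries were Phf6 wild type (WT) and 3 were Phf6 knockout (KO), where Phf6 encodes a chromatin-associated protein that is mutated in T-cell acute lymphoblastic leukaemia (T-ALL). In both groups, WT included, the donor cells had received a retrovirus for JAK3 M511I, an activated Janus kinase that gives a T-ALL-like disease in mice. In the study's methods the knockout is made with Vav1-Cre, active throughout blood-forming cells, on a floxed Phf6 allele, and the WT cells carry the floxed allele without Cre. In the genotype labels the digit of the gene name climbs by 1 from sample to sample within a group, and each was read as Phf6. The labels give the material as BM and state no sorting, so host cells and unleukaemic cells may be present. The study's text calls the profiled samples T-ALL cells, without stating a sorting step for the sequenced RNA.

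The libraries held 13015823 to 18235095 reads assigned to genes. WT 2 stood apart: genes under 1000 bases took 17.1% of its reads, where the remaining 5 libraries gave them 3.11% to 5.01%, and its FPKM values summed to 897352 against 244936 to 329893. Its FPKM values rest on a library size of 0.645 times its recovered reads. The factor was 1.01 and 1.06 in WT 1 and WT 3 and 1.16 to 1.21 in KO. A smaller factor raises every FPKM value of a library. The RNA of Phf6 itself did not separate the groups, at 7.47, 3.67 and 8.02 FPKM in WT and 6.73, 5.50 and 5.11 FPKM in KO; the floxed part is only a piece of the gene, so the level of the whole gene is a weak check of the label. Cell type markers differed widely. All 10 neutrophil markers were lower in KO by the test across all genes described below, with a summed level of 6674 to 93719 FPKM in WT and 91.4 to 282 FPKM in KO. All 9 immature thymocyte markers were higher in KO, with sums of 13.0 to 51.4 FPKM in WT and 1091 to 1314 FPKM in KO. The sum of the 10 T cell markers overlapped, at 865 to 1789 FPKM in WT and 1120 to 1368 FPKM in KO, and 1 of the 10 was called lower. Of all genes tested, 13.3% were called lower and 13.1% higher.

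Of the 10 genes, 8 lie within chr17:33915899-35443773 (GRCm38, as are all gene positions here), the mouse MHC. B2m lies on chromosome 2 and Nlrc5 on chromosome 8. Promoter windows of 300 bases, from 250 before to 50 after the gene start, were found in RefSeq (GRCm38.p6) for 8 of the 10 genes, all but Tap2 and Nlrc5. The windows of the 3 heavy chain genes and of B2m are shown because heavy chains and B2m pair in the class I molecule. Capitals mark matches to 3 motifs searched on both strands: the interferon regulatory factor core AANNGAAA, the NF-kappaB consensus of 10 letters, and CCAAT.
H2-K1: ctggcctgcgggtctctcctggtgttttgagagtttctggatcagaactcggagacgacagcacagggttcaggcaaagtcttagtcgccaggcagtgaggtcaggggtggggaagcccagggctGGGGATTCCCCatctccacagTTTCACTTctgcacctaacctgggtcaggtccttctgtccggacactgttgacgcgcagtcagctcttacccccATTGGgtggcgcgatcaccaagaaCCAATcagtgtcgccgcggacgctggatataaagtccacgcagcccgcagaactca
H2-D1: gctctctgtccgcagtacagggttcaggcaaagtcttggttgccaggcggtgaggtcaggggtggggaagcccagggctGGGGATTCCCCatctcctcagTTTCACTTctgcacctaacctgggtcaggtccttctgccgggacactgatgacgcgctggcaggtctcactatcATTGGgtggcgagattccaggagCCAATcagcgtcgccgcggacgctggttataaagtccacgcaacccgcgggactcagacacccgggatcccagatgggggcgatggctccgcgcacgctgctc
H2-Q7: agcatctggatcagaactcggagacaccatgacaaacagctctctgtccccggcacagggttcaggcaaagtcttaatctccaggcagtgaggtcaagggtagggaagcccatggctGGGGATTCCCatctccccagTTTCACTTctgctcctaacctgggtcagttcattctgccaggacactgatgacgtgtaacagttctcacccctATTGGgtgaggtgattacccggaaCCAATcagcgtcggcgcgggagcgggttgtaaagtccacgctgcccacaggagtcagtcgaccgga
B2m: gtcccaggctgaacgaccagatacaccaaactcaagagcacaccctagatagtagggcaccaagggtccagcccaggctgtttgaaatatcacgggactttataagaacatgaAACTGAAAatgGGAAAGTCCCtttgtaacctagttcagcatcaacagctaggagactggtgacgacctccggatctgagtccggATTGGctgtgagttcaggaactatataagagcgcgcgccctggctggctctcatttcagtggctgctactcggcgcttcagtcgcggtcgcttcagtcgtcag
The windows are chr17:34000284-34000583 on the minus strand for H2-K1, chr17:35262844-35263143 on the plus strand for H2-D1, chr17:35438905-35439204 on the plus strand for H2-Q7 and chr2:122147437-122147736 on the plus strand for B2m.

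The 3 heavy chain windows were near copies of each other, with 87.7% identical bases between H2-K1 and H2-D1, 86.1% between H2-K1 and H2-Q7 and 84.6% between H2-D1 and H2-Q7. In each, an NF-kappaB match lay upstream of an interferon regulatory factor core on the minus strand, and 2 CCAAT boxes stood close to the start. The core began 104 bases before the RefSeq start in H2-K1, 150 in H2-D1 and 113 in H2-Q7. B2m held the same 3 kinds of match, with its core on the plus strand 137 bases before the start, in front of the NF-kappaB match. Over the 8 windows, the interferon regulatory factor core was found in 4, as was the NF-kappaB consensus, and CCAAT was found in 7. Over all 32851 windows of this length, the core was present in 23.9%, the NF-kappaB consensus in 4.51% and CCAAT in 37.4%. In H2-K1 and H2-D1 the NF-kappaB consensus matched at 2 positions that overlap by all but 1 base, and on both strands. The windows of Tap1 and Psmb9, which are transcribed away from each other, shared 275 of their 300 bases and held CCAAT but neither of the other 2 motifs. A match describes the letters of the window and shows no bound factor.

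Heavy chains are the polymorphic part of the complex that holds the peptide. The classical heavy chain gene H2-K1 (chr17:33996017-34000333) was measured at 1155, 1859 and 1370 FPKM in WT 1, 2 and 3 and at 476, 290 and 423 FPKM in KO 1, 2 and 3. FPKM is the number of fragments relative to gene length and library size, so it can be compared between genes. Every KO library was below every WT library, and the WT mean was 3.69 times the KO mean. On the scale of log2(FPKM + 1), which is used for all fold changes here, H2-K1 fell in KO by 1.88 (SE 0.48; limma, Benjamini-Hochberg adjusted p = 0.031). H2-D1 (chr17:35262730-35267499), the other classical heavy chain, was at 830, 1332 and 834 FPKM in WT and at 344, 230 and 337 FPKM in KO. It fell by 1.70 (SE 0.45; limma adjusted p = 0.0335), again without overlap of the groups. H2-Q7 (chr17:35439155-35443773), a nonclassical heavy chain of the Qa-2 group, was at 250, 335 and 301 FPKM in WT and at 93.3, 55.4 and 115 FPKM in KO. It fell by 1.79 (SE 0.38; limma adjusted p = 0.0151). In all 3 genes KO 2 was the lowest library and WT 2 the highest in FPKM. In recovered reads of H2-Q7, WT 2 held 16819 and WT 3 held 19925, although WT 2 had more reads in total. In bulk RNA, fewer cells that express a gene and less RNA per cell cannot be told apart.

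These calls depended on single libraries and, as given further on, on the scaling. H2-K1 and H2-D1 missed the threshold without any 1 of the KO libraries (limma adjusted p between 0.109 and 0.184) and without WT 1 or WT 3 (0.0645 to 0.0742), and H2-Q7 missed it without KO 1 (0.0614) or KO 2 (0.0777); each stayed below WT, and all 3 passed without WT 2. The 3 genes are close copies, how fragments that map to several of them were counted is not given in the sources used here, and the split of fragments between them is therefore uncertain.

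B2m (chr2:122147686-122153083) encodes β2-microglobulin, the light chain shared by all class I heavy chains. It was the highest of the 10 genes in every library, at 1710, 2780 and 1714 FPKM in WT and at 1395, 1396 and 1347 FPKM in KO. The 3 KO libraries lay close together and below all 3 WT libraries. WT 2 was far above the rest in FPKM, which its small library size raises. The log2 difference was -0.54 (SE 0.60, 95% interval -1.97 to 0.89; limma adjusted p = 0.553), so B2m did not pass the test, and its sign turned under quantile normalization (0.77) and under TPM scaling (0.30).

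**Figure D1:**
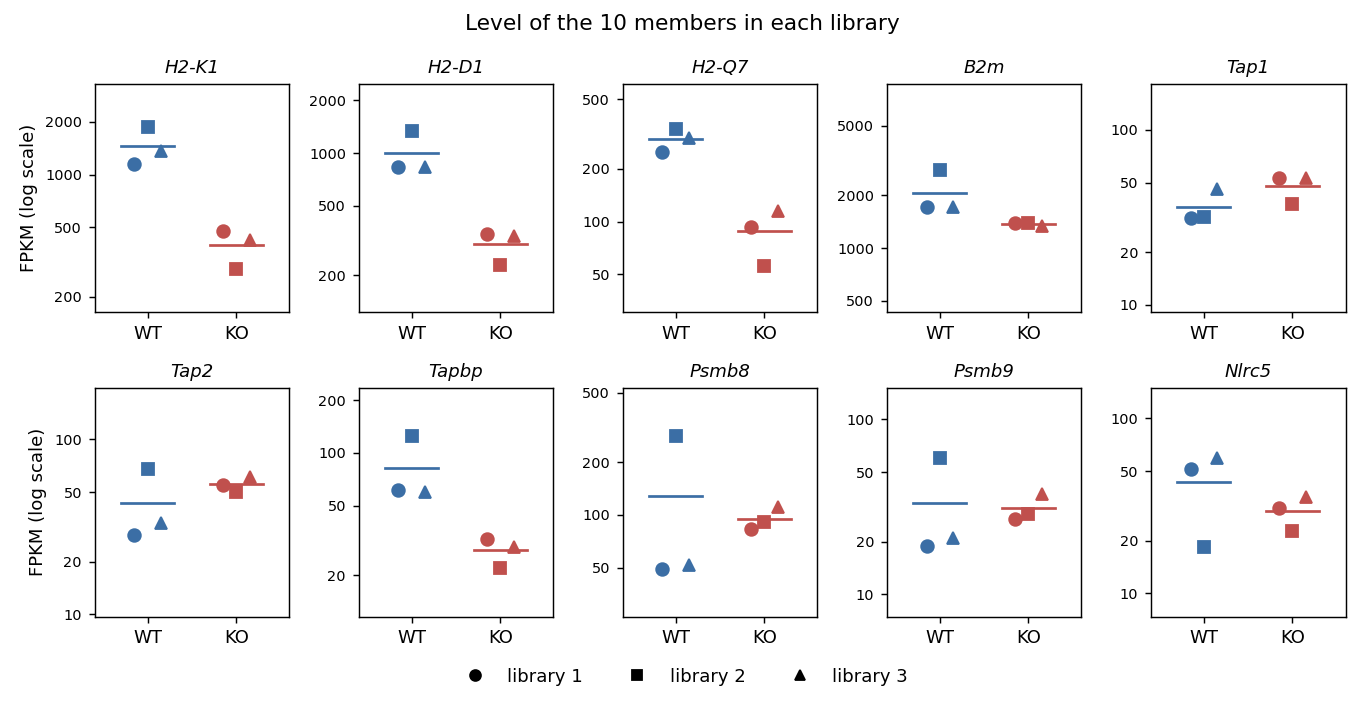
FPKM of each of the 10 genes (y axis, log scale with the same 20-fold span in every panel) in the 3 WT (blue) and 3 KO (red) libraries; each symbol is a library and each line the group mean. H2-K1, H2-D1, H2-Q7, B2m and Tapbp have every KO library below every WT library, and WT 2 (square) is the highest WT library in 8 of the 10 panels, the exceptions being Tap1 and Nlrc5.

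A ratio of 2 genes within a library does not depend on how the library was scaled. These ratios were chosen after the values were seen and are given without a test. H2-D1 was at 0.485, 0.479 and 0.487 of the FPKM of B2m in WT 1, 2 and 3, a nearly constant share although WT 2 stood apart in other ways. In KO 1, 2 and 3 the share was 0.247, 0.165 and 0.250. H2-K1 was at 0.675, 0.669 and 0.799 of B2m in WT and at 0.341, 0.208 and 0.314 in KO. H2-Q7 was at 0.146, 0.121 and 0.176 of B2m in WT and at 0.0668, 0.0396 and 0.0857 in KO. In all 3 cases the groups did not overlap, and the mean log2 ratio was lower in KO by 1.16, 1.34 and 1.26 for H2-D1, H2-K1 and H2-Q7. The heavy chain RNAs were thus lower in KO relative to the RNA of their own light chain.

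The transporter genes did not pass the test in either direction with all 6 libraries. Tap1 (chr17:34187553-34197225) and Tap2 (chr17:34203527-34216321) encode the 2 subunits of the peptide pump. Tap1 was at 31.3, 31.8 and 45.8 FPKM in WT and at 53.1, 37.9 and 53.3 FPKM in KO. Its log2 difference was 0.40 (SE 0.28, 95% interval -0.27 to 1.07; limma adjusted p = 0.347), and KO 2 lay below WT 3. Tap2 was at 28.3, 67.5 and 33.2 FPKM in WT and at 55.1, 49.9 and 60.6 FPKM in KO, a log2 difference of 0.45 (SE 0.37, 95% interval -0.43 to 1.34; limma adjusted p = 0.422). WT 2 was the highest of the 6 libraries for Tap2, and the other 2 WT libraries were the lowest. Without WT 2, Tap2 rose in KO by 0.82 (limma adjusted p = 0.00531), while Tap1 did not pass (0.32, limma adjusted p = 0.287).

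Tapbp (chr17:33915899-33929288) encodes tapasin, the bridge between the transporter and the heavy chain. It fell from 60.9, 124 and 59.9 FPKM in WT to 31.99, 21.99 and 29.2 FPKM in KO, with no overlap. The log2 change was -1.46 (SE 0.36; limma adjusted p = 0.0281), and it missed the threshold without any 1 of the KO libraries (0.0785 to 0.125). Tapbp overlaps Zbtb22 on the same strand by 3421 bases, but Zbtb22 held at most 556 reads in a library against up to 4808 for Tapbp. Against Tap1, Tapbp was at 1.95, 3.91 and 1.31 in WT and at 0.602, 0.580 and 0.547 in KO. H2-K1 was 36.9, 58.5 and 29.9 times as high as Tap1 in WT and 8.95, 7.65 and 7.94 times in KO. The 3 KO libraries thus lay close together in both ratios, well below the lowest WT library.

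Psmb8 and Psmb9 encode catalytic subunits of the immunoproteasome, which take the places of the constitutive subunits Psmb5 and Psmb6. Psmb8 (chr17:34197721-34201454) was at 49.4, 283 and 52.0 FPKM in WT and at 83.3, 90.7 and 110 FPKM in KO. Psmb9 (chr17:34181988-34187764), which overlaps Tap1 by 212 bases on the other strand, was at 18.9, 59.9 and 21.0 FPKM in WT and at 26.9, 28.7 and 37.4 FPKM in KO. For both genes the KO libraries lay between WT 2 and the other WT libraries. The log2 difference was 0.06 for Psmb8 (SE 0.69, 95% interval -1.60 to 1.72; limma adjusted p = 0.960) and 0.09 for Psmb9 (SE 0.47, 95% interval -1.03 to 1.21; limma adjusted p = 0.914), and both changed sign when WT 1 or WT 3 was left out. Without WT 2, Psmb8 rose by 0.88 (limma adjusted p = 0.00573) and Psmb9 by 0.60 (limma adjusted p = 0.0307).

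The ratio to the constitutive partner asks whether the inducible subunit gained ground on it. Psmb8 was at 1.07, 1.85 and 1.42 times Psmb5 in WT and at 1.66, 1.41 and 1.71 times in KO. The difference of the mean log2 ratios was 0.17 (SD 0.39 in WT and 0.15 in KO, n = 3 each; two-sided exact permutation p = 0.7). Psmb9 was at 0.682, 0.411 and 0.871 times Psmb6 in WT and at 0.625, 0.597 and 0.712 times in KO, a difference of 0.04 (SD 0.55 in WT and 0.13 in KO; exact permutation p = 0.9). The smallest p this design allows is 0.1, and adjusted over the 2 ratios both p-values were 0.9. The groups overlapped in both tested ratios, with WT 2 the highest library for Psmb8 to Psmb5 and the lowest for Psmb9 to Psmb6. The remaining inducible subunit, Psmb10, set against its partner Psmb7 went another way. This ratio was 3.96, 26.1 and 5.43 in WT and 2.53, 1.91 and 2.88 in KO. It did not overlap and its mean log2 value was lower in KO by 1.78, with WT 2 far above the other libraries. Of the pair, Psmb7 was called higher in KO (log2 change 1.04), and Psmb10 was not called (-0.67). Without WT 2 these values were 1.25 and 0.38, so the lower ratio does not show a fall of Psmb10. This pair was not fixed with the 2 tests and is given without one.

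**Figure D2:**
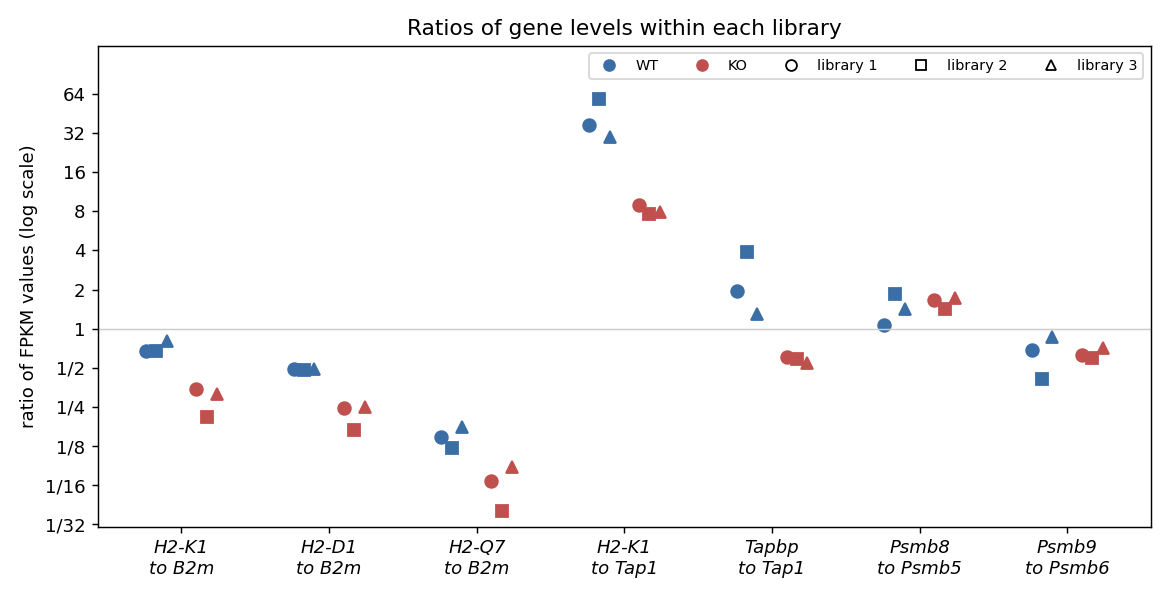
Ratio of the FPKM of 2 genes within each library (y axis, log scale) for 7 gene pairs, WT in blue and KO in red, each symbol a library. The 3 heavy chains against B2m, and H2-K1 and Tapbp against Tap1, have all KO libraries below all WT libraries, whereas Psmb8 against Psmb5 and Psmb9 against Psmb6 overlap.

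Nlrc5 (chr8:94434356-94527272) encodes the transactivator of class I genes, which acts at the promoters of heavy chains, B2m, Tap1 and Psmb9. It was at 51.3, 18.4 and 59.7 FPKM in WT and at 30.7, 22.7 and 35.7 FPKM in KO. WT 2 was the lowest of the 6 libraries although it had the highest FPKM of H2-K1, H2-D1 and H2-Q7. The log2 difference was -0.39 (SE 0.48, 95% interval -1.53 to 0.76; limma adjusted p = 0.598), with the sign turned under TPM scaling (0.43). With a correction for gene length it was -0.62 (limma adjusted p = 0.229). Without WT 2, Nlrc5 fell by 0.90 (limma adjusted p = 0.0149).

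As a list, 4 of the 10 genes were lower in KO and 0 were higher, against 13.3% of the 13393 genes tested that were called lower and 13.1% called higher. At an unadjusted p under 0.05 the list still held 0 genes that were higher. The median log2 fold change was -0.47 for the 10 genes and 0.09 for all genes tested. Groups without overlap were seen in 5 of the 10, all with KO lower; of all genes tested, 22.9% had KO entirely below WT and 26.2% entirely above. Without WT 2, 5 of the 10 were lower and 3 were higher, but then 25.3% of all genes were called lower and 26.8% higher. The 4 genes called in the 6 libraries were called again without WT 2, and the fifth was Nlrc5.

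**Figure D3:**
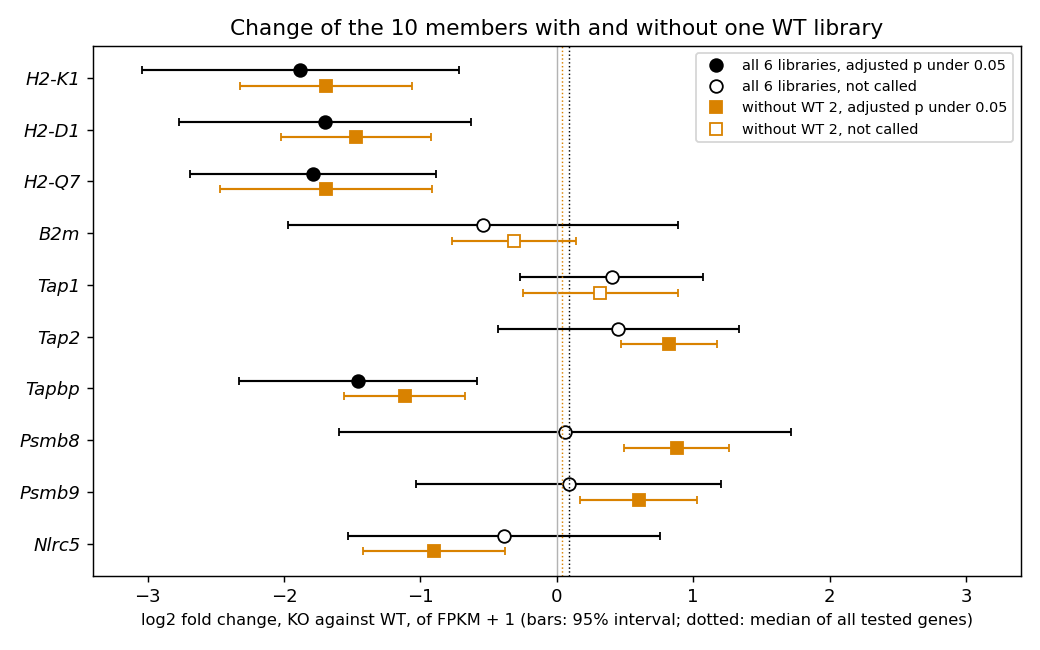
Log2 fold change of KO against WT (x axis) for each of the 10 genes, with bars for the 95% interval, from all 6 libraries (black circles) and without WT 2 (orange squares); filled symbols passed an adjusted p of 0.05. H2-K1, H2-D1, H2-Q7 and Tapbp are filled below 0 in both, while Tap2, Psmb8 and Psmb9 are filled above 0 only without WT 2; the sign of B2m and Nlrc5 turned under TPM scaling, which is not drawn.

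Scaling mattered for the sign of the smaller differences. Under TPM, which sets every library to the same total, the median of all genes shifted from 0.09 to 0.86. Relative to that median, the log2 change of H2-K1 was -1.90 under TPM and -1.97 under FPKM, that of Tapbp was -1.50 and -1.54, and that of Tap2 was 0.44 and 0.37. TPM here divides all FPKM values of a library by the same number. Apart from the effect of the 1 added before the log, these distances had to stay the same. Their closeness is therefore no check of the result. Under quantile normalization, with a median of all genes of 0.15, the log2 changes shrank to -0.61 for H2-K1, -0.51 for H2-D1 and -1.07 for H2-Q7 (limma adjusted p = 0.401, 0.410 and 0.11), while that of B2m turned to 0.77. Taken without that reference, H2-K1, H2-D1, H2-Q7 and Tapbp did not pass under TPM (limma adjusted p between 0.0802 and 0.164), and Tap2 rose by 1.29 (limma adjusted p = 0.0192).

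Cell composition moved together with these results. Of all genes tested, 13.3% were called lower and 13.1% higher. Besides the neutrophil and immature thymocyte markers given above, B cell markers summed to 2298 to 23655 FPKM in WT and 30.1 to 124.5 FPKM in KO, with 3 of the 7 tested called lower. Monocyte and macrophage markers summed to 318 to 4753 FPKM in WT and 13.2 to 23.7 FPKM in KO, with 3 of 7 called lower. The 8 dendritic cell markers summed to 17.3 to 31.5 FPKM in WT and 0.462 to 0.597 FPKM in KO, where Siglech and Cd209a were at 0 in every library. Erythroid markers summed to 138 to 68106 FPKM in WT, the upper end being WT 2, and 16.9 to 127 FPKM in KO, with 0 of 8 called by limma and 4 of 8 at an unadjusted p under 0.05. Among NK cell markers, 6 were lower and Gzma was higher in KO, so that their sum was 224 to 377 FPKM in WT and 571 to 619 FPKM in KO, with Klra8 at 0 in every KO library. Within WT, the neutrophil sum was 32948, 93719 and 6674 FPKM in WT 1, 2 and 3. In the same order, the monocyte and macrophage sum was 1812, 4753 and 318 FPKM. The B cell sum was 2298, 23655 and 5655 FPKM and the erythroid sum 138, 68106 and 531 FPKM. WT 2 was highest in each of these sums and in the FPKM of H2-K1, H2-D1, H2-Q7 and Tapbp. Its library size, 0.645 times its recovered reads, raises every FPKM value of WT 2 by the same factor. The neutrophil and monocyte sums were higher in WT 1 than in WT 3, and the B cell and erythroid sums were lower. In WT 1 and WT 3, H2-K1 was at 1155 and 1370 FPKM, H2-D1 at 830 and 834 and H2-Q7 at 250 and 301. Tapbp was at 60.9 and 59.9 FPKM in these libraries. The part of cell composition in the lower heavy chain and Tapbp levels was not tested.

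The rest of the pathway was read from lists of 84 further genes, of which 81 were in the table and 74 were tested. In KO 9 of them were lower and 6 were higher, shares close to or below the 13.3% and 13.1% of all genes, and their median log2 fold change was -0.10. Without WT 2 the counts were 16 lower and 24 higher, beside 25.3% and 26.8% of all genes. Of the calls named below, those of H2-K2, H2-Q6, H2-Q10, H2-Q2, Fcgrt, Cd1d1, Mr1, Ifng, Mx1, Oas3, Oas1a, Iigp1 and H2-Ob held under each alternative in which the gene was tested (18 or 19 of them). Most alternatives reused the same filtered genes. Genes under 1 FPKM throughout 1 group, such as H2-Q2, Iigp1, Mx1 and Fcgrt, passed the filter only through the other group. That their calls held is therefore no independent support. Those of Psmb7, Hspa5, Rela, Ifnar1, Socs1, Irf7, Igtp, Gbp3, Cd74, H2-Ab1, H2-Aa and H2-Eb1 were lost without at least 1 KO library, and Hspa5, Rela, Ifnar1 and Irf7 were also lost under TPM scaling (limma adjusted p = 0.239, 0.244, 0.903 and 0.0659).

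The other class I heavy chains moved in both directions. Of 16 tested, 5 fell and 4 rose, beside 13.3% and 13.1% of all genes. H2-K2 and H2-Q6, named here after their values were seen because they are close copies of H2-K1 and H2-Q7, moved the same way as these. H2-Q6 was at 452, 704 and 661 FPKM in WT and 101, 36.4 and 129 FPKM in KO (log2 change -2.91, limma adjusted p = 0.00989). H2-K2 was at 33.0, 116 and 34.7 FPKM in WT and 6.19, 5.45 and 7.70 FPKM in KO (log2 change -2.82, limma adjusted p = 0.00872). The ratio of H2-Q6 to H2-Q7 was 1.81, 2.10 and 2.19 in WT and 1.09, 0.658 and 1.12 in KO. H2-Q10 fell by 2.74 (limma adjusted p = 0.00808).

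H2-Q2 went the opposite way and was close to absent in WT. It had 4, 0 and 4 reads in the WT libraries and 1363, 920 and 1712 reads in the KO libraries, or 33.5, 26.8 and 48.8 FPKM in KO (log2 change 5.07, limma adjusted p = 0.000259). H2-Q1, the nearest listed heavy chain gene, and H2-Q4 are named after their values were seen. H2-Q1 was low, with 5 to 14 reads in WT and 54 to 84 reads in KO (0.149 to 0.317 and 1.17 to 1.58 FPKM). Its log2 difference was 0.91 (limma adjusted p = 0.00914), and the call held in 17 of 18 alternatives. H2-Q1 and H2-Q2 passed the filter only through the KO libraries, where they were higher, so H2-Q1 lends H2-Q2 no support. H2-Q4 was not called. Fcgrt, the neonatal Fc receptor heavy chain, which pairs with B2m but carries no peptide, fell from 62.0, 161 and 54.9 FPKM to 0.715, 0.332 and 0.709 FPKM (log2 change -5.72, limma adjusted p = 0.000453). The lipid-presenting Cd1d1 rose by 1.40 (limma adjusted p = 0.00694), and it is also among the immature thymocyte markers used here. Mr1, which presents vitamin metabolites, rose by 1.83 (limma adjusted p = 0.00684). Both pair with B2m, so the partners of the light chain moved in both directions.

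**Figure D4:**
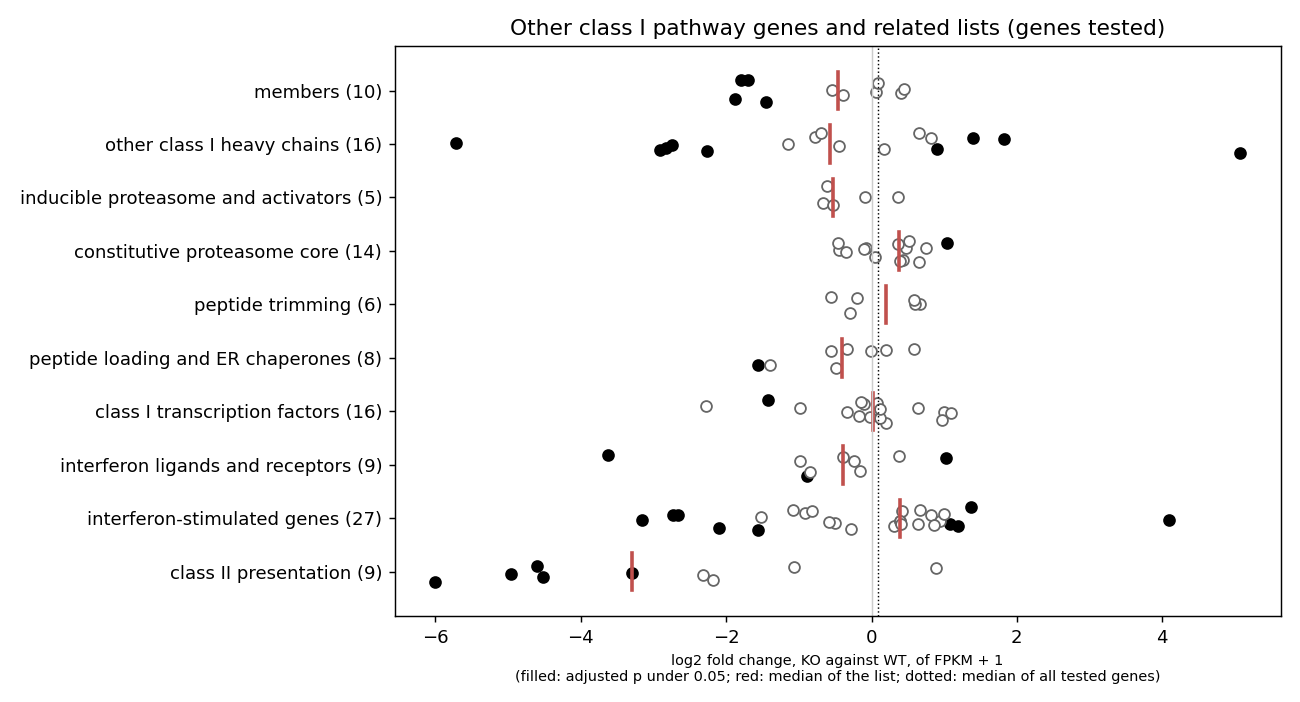
Log2 fold change of KO against WT (x axis) for each tested gene of the 10 genes described here and of 9 further lists, with the number tested in brackets; filled points passed an adjusted p of 0.05 and red bars are list medians. Heavy chains spread from -5.72 (Fcgrt) to 5.07 (H2-Q2), and class II genes lie furthest below 0 with a median of -3.30. The genes of the 2 proteasome lists run from -0.67 (Psmb10) to 1.04 (Psmb7), with only Psmb7 filled.

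No gene of the proteasome lists was called lower. Of the 5 genes of the inducible proteasome and its activators, 0 passed in either direction, by limma at an adjusted p of 0.05 and at an unadjusted one. Psmb10, the remaining inducible catalytic subunit, was at 42.5, 397 and 45.6 FPKM in WT and 54.2, 50.3 and 70.1 FPKM in KO. Its log2 difference was -0.67 (limma adjusted p = 0.616), with WT 2 alone above all KO libraries. The activator genes Psme1, Psme2 and Psme3 differed by -0.53, -0.61 and 0.37 on the log2 scale, and Pomp, an assembly factor, by -0.09. Psmb10, Psme1, Psme2 and Pomp turned positive without WT 2 and under TPM scaling. Among 14 constitutive core subunits, only Psmb7 was called, higher by 1.04 (limma adjusted p = 0.0348), beside 13.1% of all genes called higher. Psmb5 and Psmb6 differed by -0.10 and 0.05, and both changed sign when single libraries were left out. Without WT 2, 11 of these 14 rose, beside 26.8% of all genes.

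Of 6 genes for trimming of peptides 0 were called by limma, and 0 had an unadjusted p under 0.05. The gene with the smallest p was Blmh, a cysteine protease, at 6.26, 15.6 and 5.33 FPKM in WT and 12.7, 13.0 and 14.7 FPKM in KO (log2 difference 0.66, limma adjusted p = 0.280). Beside 13.3% of all genes called lower, 1 of 8 genes of peptide loading and chaperoning in the endoplasmic reticulum fell. This was Hspa5, the chaperone BiP, at 189, 173 and 135 FPKM in WT and 47.1, 56.3 and 62.0 FPKM in KO (log2 change -1.56, limma adjusted p = 0.00839). Calreticulin (Calr), which binds heavy chains in the loading complex, was at 191, 470 and 119 FPKM in WT and 74.2, 77.0 and 102 FPKM in KO, a difference of -1.39 that did not pass (limma adjusted p = 0.107).

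Among 16 genes for transcription factors of class I promoters, 1 was called, in the lower direction, beside 13.3% of all genes called lower. Rela, the p65 subunit of NF-kappaB, was at 52.2, 85.2 and 61.5 FPKM in WT and 27.0, 19.2 and 24.97 FPKM in KO (log2 change -1.43, limma adjusted p = 0.0128). Irf8, a factor of myeloid and B cells, was at 5.75, 27.2 and 3.05 FPKM in WT and 0.700, 0.684 and 1.33 FPKM in KO (difference -2.28, limma adjusted p = 0.0551). Atf1 and Nfyb differed by 1.00 and 0.64 (limma adjusted p = 0.0665 and 0.0687).

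Interferon gamma RNA fell in KO. Ifng was at 13.2, 59.1 and 24.5 FPKM in WT and 0.539, 1.81 and 1.68 FPKM in KO, a log2 change of -3.62 (SE 0.56; limma adjusted p = 0.00497). Of the 9 genes of interferon ligands, receptors and their kinases, Ifnar1, a chain of the type I receptor, fell by 0.89 (limma adjusted p = 0.0335), and Socs1, an inhibitor of the pathway, rose by 1.03 (limma adjusted p = 0.0463). The kinases Tyk2 and Jak1 differed by -0.85 and -0.99 (limma adjusted p = 0.0938 and 0.183).

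Of the 27 interferon-stimulated genes tested, 5 fell and 4 rose, shares near the 13.3% and 13.1% of all genes, and their median log2 fold change was 0.39. Those that fell included the antiviral genes Mx1, Oas3 and Oas1a and the factor Irf7, with log2 changes of -2.66, -2.73, -3.15 and -2.10 and limma adjusted p-values of 0.00051, 0.00196, 0.00494 and 0.0181. Mx1 was at 5.94, 5.51 and 6.95 FPKM in WT and 0.0709, 0.0168 and 0.312 FPKM in KO. Among those that rose, Iigp1, a GTPase induced by interferon gamma, went from 0.208, 0.436 and 0.765 FPKM to 26.0, 17.2 and 29.6 FPKM (log2 change 4.09, limma adjusted p = 0.000399). Igtp and Gbp3, GTPases of the same kind that were named after their values were seen, rose by 1.08 and 1.19 (limma adjusted p = 0.0240 and 0.0296).

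Class II genes, which serve presentation to CD4 T cells and are mostly expressed by B cells, dendritic cells and macrophages, had the lowest median of the presentation and interferon lists. Of 9 tested, 5 fell and 0 rose, beside 13.3% and 13.1% of all genes. The median log2 fold change of the class II list was -3.30, and the neutrophil and B cell marker lists lay lower still, at -6.77 and -3.98. Cd74, the invariant chain, was at 54.8, 2496 and 49.1 FPKM in WT and 2.44, 1.40 and 2.20 FPKM in KO (log2 change -6.00, limma adjusted p = 0.0263). Without WT 2 its change was -4.15. H2-Ab1, H2-Aa and H2-Eb1 had log2 changes of -4.61, -4.52 and -4.96, which shrank to -3.11, -2.92 and -3.18 without WT 2, and H2-Ob fell by 3.30 (limma adjusted p between 0.00946 and 0.0447). B cell, monocyte and dendritic cell markers were lower in the same libraries, and their part in this list was not tested. WT 2 carried 303 FPKM of H2-Aa against 12.3 and 7.95 FPKM in WT 1 and WT 3, so class II levels differed far more within WT than the levels of H2-K1 did.

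The 5 genes most like the mean profile of the 10, by the smallest root mean square difference of centred log2(FPKM + 1) over the 6 libraries, were Rabl6 (0.10), Pigs (0.10), Psme2b (0.11), Rbms2 (0.11) and Acd (0.12). The 10 genes themselves lay between 0.17 and 0.75 from their mean profile, with a median of 0.59, against a median of 0.76 over all tested genes.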

How the data were processed

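Total RNA of BM was extracted with Trizol and sequenced as paired-end reads from NEBNext libraries. The submitters' processing notes name HISAT2 2.0.5, featureCounts 1.5.0-p3 and GRCm38/mm10; the use of strand and the treatment of multi-mapped fragments are not given in the sources used here. The deposited values are FPKM per gene, computed by the authors. All values were whole multiples of 1 read (tolerance 0.1 read). The library size the authors divided by was 0.645 times the recovered total in WT 2. It was 1.01 and 1.06 times that total in WT 1 and WT 3 and 1.16 to 1.21 times in KO. A count of 0 allows up to 3 reads, or 0.161 to 0.255 RPM; such limits cover counting error only. Gene coordinates are those of the deposited table.

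Genes that reached 1 FPKM in 3 or more of the 6 libraries were tested by limma 3.58.1 in R 4.3.3 (lmFit and eBayes with an intensity trend, two-sided) on log2(FPKM + 1), with Benjamini-Hochberg adjustment over 13393 genes and a threshold of 0.05. The scale understates changes of low genes. Genes under 1 FPKM throughout 1 group, such as H2-Q1, H2-Q2, Iigp1, Mx1 and Fcgrt, passed this filter only through the other group. Nothing says that the libraries came from separate mice, so p-values measure the spread between these samples. Ratios used exact permutation of 3 against 3 libraries. The members and lists were chosen with earlier results of these data known. Named were all 10 members, the inducible proteasome list, Psmb5, Psmb6 and Psmb7, and up to 5 genes with the smallest p in each other list, other genes being marked where they appear. Alternatives were other pseudocounts (0.1, 0.5), filters, scalings, weights, a replicate block, voom on recovered reads, a length correction and leaving out each library. The fit was tested on simulated data. Promoters were aligned with Biopython 1.88, and identity is over aligned bases. Other software was the data.table package (1.17.8), Matplotlib 3.10.9, SciPy 1.17.1, NumPy 2.4.6, pandas 2.3.3 and Python 3.11.15.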

Additional observations from a re-analysis of the deposited data

How the results depend on the processing

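Over 19 alternatives of the test across all genes, H2-K1, H2-D1, H2-Q7 and Tapbp were lower in KO in every one, but H2-K1 and H2-D1 passed the threshold in 10 and H2-Q7 and Tapbp in 14. The 4 genes called lower became 2 without a filter, 1 under quantile normalization, 0 under TPM, 0 with the replicate block, and 0 to 5 when a library was left out. The 0 called higher became 1 under quantile normalization, 1 under TPM, 3 with array weights and up to 3 without a library. The median of the 10 genes moved from -0.47 to 0.10 under quantile normalization and 0.36 under TPM. Over all genes, 3539 calls became 1837 at a mean FPKM of at least 5, 8461 with array weights and 1934 to 6967 without a library. The calls were 49.6% higher ones, and 67.8% under TPM. Other pathway genes called lower went from 9 to 23 with array weights and 6 to 16 without a library. Those called higher went from 6 to 10 under quantile normalization, 16 under TPM, 23 with array weights and 4 to 24 without a library.

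No pairing of the libraries by the numbers 1 to 3 was seen: deviations of same-numbered libraries correlated at 0.095, 0.105 and -0.153. Those of differently numbered libraries ran from -0.195 to 0.232. With 3 libraries per group this cannot exclude a pairing. With the number as a replicate block, 2676 genes were called in all.

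The direction turned as follows. Under quantile normalization B2m was 0.77, Psmb10 0.0040, Psme1 0.24, Pomp 0.14 and Psmb5 0.48. Under TPM B2m was 0.30, Nlrc5 0.43, Psmb10 0.17, Psme1 0.31, Psme2 0.22, Pomp 0.74, Psmb5 0.73 and Phf6 0.69. With array weights Psmb10 was 0.36, Psme1 0.21, Psme2 0.27, Pomp 0.38 and Psmb5 0.42. Psmb8 was -0.018 by voom. With the length trend removed Psmb5 was 0.049 and the log2 ratio of Psmb9 to Psmb6 -0.11. Leaving out a library gave -0.029 to 0.36 for the ratio of Psmb8 to Psmb5, -0.26 to 0.28 for the ratio of Psmb9 to Psmb6, -0.37 to 0.88 for Psmb8, -0.21 to 0.60 for Psmb9, -1.22 to 0.38 for Psmb10, -0.92 to 0.18 for Psme1, -1.14 to 0.34 for Psme2, -0.43 to 0.47 for Pomp, -0.50 to 0.52 for Psmb5, -0.41 to 0.86 for Psmb6 and -0.37 to 0.1 for Phf6. The cause of these shifts was not tested.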
